A study of Mus musculus with 15 samples.

Results

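The transcripts of the mitochondrial ribosomal protein genes were followed through 15 RNA-seq libraries of HY19636, a murine pancreatic ductal adenocarcinoma (PDAC) line. A gene was taken as a member where its symbol was Mrpl or Mrps followed by a number and at most 1 further letter, and where its mean normalised read count was at least 10 in each of the 3 deposited tables. Of 55291 genes, 78 carried such a symbol and 77 passed, namely 48 Mrpl genes (large subunit) and 29 Mrps genes (small subunit). The rule itself uses no difference between treatments, but the set was chosen with earlier results of these data known. The gene that did not pass was Mrpl53, which was listed at 0 in every library.

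HY19636 is 1 line, from a tumor of a genetically engineered mouse that carried a Cre recombinase driven by a pancreatic promoter, and all samples share its genotype. Cells were grown in DMEM with 10% serum as 3 control cultures (CNT), 3 cultures with 25 uM DON for 24 h and 3 cultures without glutamine (Gln) for 24 h. DON (6-diazo-5-oxo-L-norleucine) is a Gln antagonist that blocks enzymes which use Gln. Tumors came from the same cells placed in the pancreas of female B6J mice aged 8 to 10 weeks, which have an intact immune system. Of these, 3 were from mice given vehicle (VEH) and 3 from mice given DRP-104, a pro-drug of DON, at 3 mg per kg daily for 2 cycles of 5 days on and 2 days off. The question was how Gln antagonism in culture, Gln removal in culture and the pro-drug in tumors changed these transcripts, and whether the large and small subunits moved alike. Nothing in the labels says whether the 3 cultures of a group were separate experiments, so p-values there measure only the spread between these samples.

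The mitochondrial ribosome translates the few messenger RNAs that mitochondrial DNA encodes, all of which specify core subunits of the respiratory chain and ATP synthase. Its ribosomal RNAs are transcribed in the organelle, whereas every one of its proteins is encoded in the nucleus, made in the cytosol and imported. Many of the proteins descend from bacterial ribosomal proteins and others were acquired in the mitochondrial lineage, and the symbols do not always give the right subunit. Mrps18a and Mrps30 are proteins of the large subunit, and Mrps36 is a subunit of the α-ketoglutarate dehydrogenase complex of the TCA cycle.

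The tumor libraries held 16.3 to 20.7 M reads, as recovered from the values, and those of cultured cells 25.2 to 48.2 M reads (M, mega). Values are normalised read counts, that is, gene counts divided by a size factor of the library within its own table. The control columns of both culture tables carry the name VEH, which the labels use only for tumors. In them the summed level of 8 fibroblast markers was 477 to 646 against 28670 to 52090 in the vehicle tumors, and all 7 islet and all 4 B cell markers were at 0. Other lists separated them less. The sum of 7 macrophage markers was 2083 to 2805 against 5826 to 8074 in the vehicle tumors. That of 8 T cell markers, 87.0 to 115.7, was not below the vehicle tumors (52.9 to 98.3). All 7 epithelial markers, the labelled cell type, were detected in the control cells, with a sum of 393400 to 511200, and the sum was 116900 to 125200 after DON and 158300 to 173600 without Gln. The part of that difference in the members' values was not tested. The DON and no Gln comparisons share the 3 control libraries.

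The members differed widely in level. Per kb of gene length, which was known for 76 of them, the mean in control cells had a median of 800.2 and ran from 156 ± 12.4 (SD, n = 3) for Mrpl48 to 4142 ± 719 for Mrpl52. Behind Mrpl52 came Mrpl12, the stalk protein that contacts translation factors and also binds the mitochondrial RNA polymerase, at 3812 ± 543, Mrps21 at 3811 ± 591, Mrpl28 at 3656 ± 473 and Mrpl34 at 3390 ± 466. These 5 lay within their standard deviations of their neighbours in the order, whereas Mrpl20, the next, was at 2588 ± 311. At the bottom, Mrps25 (170 ± 15.7) and Mrpl48 did not differ beyond their spread either. Of the exon bases of Mrps25, 69.8% are shared on the opposite strand with Nr2c2, so its level is uncertain. In vehicle tumors the order had the same top gene, Mrpl52 at 2215 ± 169 per kb, and Mrps25 was lowest at 55.0 ± 8.04. Large subunit genes had the higher median per kb in control cells (1012 against 619) and in vehicle tumors (399 against 286).

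RefSeq start sites (GRCm38.p6) gave 75 promoter windows, each from 250 bases before to 50 after the start, for 69 of the 78 symbols. In these, the ETS core CCGGAAG was found on either strand in 34.7%, against 8.9% of all 32851 promoters and 17.5% of the 12915 promoters of genes tested in the DON comparison. The YY1 core AAGATGGC was in 16.0% (2.7% and 4.4%) and the NRF1 core CGCATGCG in 9.3% (1.9% and 3.7%). The E-box CACGTG was in 9.3% (7.2% and 9.8%), the CCAAT box in 40.0% (37.4% and 37.8%), the Sp1 box GGGCGG in 52.0% (35.7% and 62.2%) and TATAAA in 6.7% (13.6% and 7.2%). The amino acid response element TGATGNAA, at which ATF4 is known to act, was in none of the 75 windows, against 4.0% and 2.2%. These are letter matches, and no factor was measured.

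The upstream sequence is shown for 4 of the named members, picked by hand after values were seen. It runs 5′ to 3′ along the gene's own strand and up to the nearest annotated exon base. Mrpl9 (chr3:94443186-94443317, plus strand) rose in both culture treatments and holds an NRF1 core. Mrps17 (chr5:129715347-129715496, plus strand) rose in both and holds a CCAAT box and an Sp1 box, each read on the opposite strand. Mrps36 (chr13:100744660-100744809, minus strand) fell in both and holds a CCAAT box on the opposite strand and a pair of Sp1 boxes that share 1 base. Mrpl43 (chr19:45006443-45006557, minus strand) moved in opposite directions and holds a pair of ETS cores. Capitals mark the matches to the motifs above. The full windows of Mrps17, Mrps36 and Mrpl43 hold further matches outside the printed bases. Those of Mrpl24 and Mrpl47, the largest rises with DON and without Gln, hold no match. A link between a motif and a change was not tested.
Mrpl9: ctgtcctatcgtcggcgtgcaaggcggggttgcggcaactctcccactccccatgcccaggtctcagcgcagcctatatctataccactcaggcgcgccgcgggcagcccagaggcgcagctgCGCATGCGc
Mrps17: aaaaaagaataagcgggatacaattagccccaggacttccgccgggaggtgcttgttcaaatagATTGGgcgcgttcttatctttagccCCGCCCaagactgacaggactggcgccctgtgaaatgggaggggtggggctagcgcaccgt
Mrps36: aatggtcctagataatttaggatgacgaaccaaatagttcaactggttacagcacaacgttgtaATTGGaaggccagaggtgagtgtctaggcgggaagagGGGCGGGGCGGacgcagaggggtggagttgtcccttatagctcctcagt
Mrpl43: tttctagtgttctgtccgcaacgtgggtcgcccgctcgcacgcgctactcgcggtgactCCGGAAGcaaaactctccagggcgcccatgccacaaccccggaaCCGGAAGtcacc

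In DON-treated cells, 29 of the 77 members rose and 14 fell, where a call is a limma adjusted p under 0.05 across all genes tested. Over the 13556 genes tested, 68.1% were called, 33.3% higher and 34.7% lower, against 37.7% and 18.2% of the members. The median log2 fold change of the members was 0.17, with a range from -0.66 to 1.33, and that of all genes was 0.02. Changes were narrow in size. Only 3 members, 3.9%, differed by 2-fold or more, against 32% of all genes tested and 25.5% of the 10448 genes with a mean of at least 100, a level every member exceeded. This was not particular to the members. With DON the quartiles were -0.09 and 0.39 for the members and -0.13 and 0.31 for 36 complex I subunit genes. They were 0.22 and 0.58 for 78 cytosolic ribosomal protein genes, which ran from -0.15 to 0.98. DON and control values did not overlap for 43 members, against 71.9% of all genes.

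Among the rises, the largest was that of Mrpl24, a large subunit protein at the rim of the tunnel through which the new chain leaves. Its normalised read counts were 3660, 3762 and 3429 in the DON libraries against 1676, 1354 and 1307 in the control libraries, a log2 fold change of 1.33 (95% interval 1.10 to 1.56; limma adjusted p = 7.78e-08). Of its exon bases, 26.3% are shared on the opposite strand with Rrnad1, whose values were 942 to 1054 after DON and 436 to 476 in control cells. Without strand in the counting, which is not given in the sources used here, reads of such a pair cannot be told apart. Mrpl32, which is cut to its mature form by a mitochondrial protease before it enters the large subunit, gave 1583, 1752 and 1702 with DON against 865, 605 and 795, a log2 fold change of 1.17 (0.89 to 1.44; limma adjusted p = 2.14e-06). Mrps17, a small subunit protein with a bacterial counterpart, gave 2817, 2814 and 2655 against 1327, 1374 and 1152 (log2 fold change 1.11; limma adjusted p = 2.11e-07). In all of these genes, every treated library lay above every control library. Mrps23, a small subunit protein with no bacterial counterpart, and Mrpl16 rose by 0.86 each.

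The largest falls were all in small subunit genes and were smaller than the largest rises. Mrps6 gave 821, 829 and 747 with DON and 1412, 1289 and 1098 without it, a log2 fold change of -0.66 (-0.91 to -0.41; limma adjusted p = 0.000178). Of its exon bases, 19.9% are shared on the same strand with Gm49711 and Slc5a3, so its level is uncertain. Mrps7, which binds the small subunit rRNA early in assembly, gave 1467, 1514 and 1436 against 2402, 2369 and 2111, a log2 fold change of -0.64 (limma adjusted p = 3.49e-05). The groups did not overlap for either gene. Mrps28, Mrps35 and Mrps15 followed at -0.56, -0.51 and -0.45, also without overlap. The large subunit gene Mrpl42 was close behind at -0.44.

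**Figure D1:**
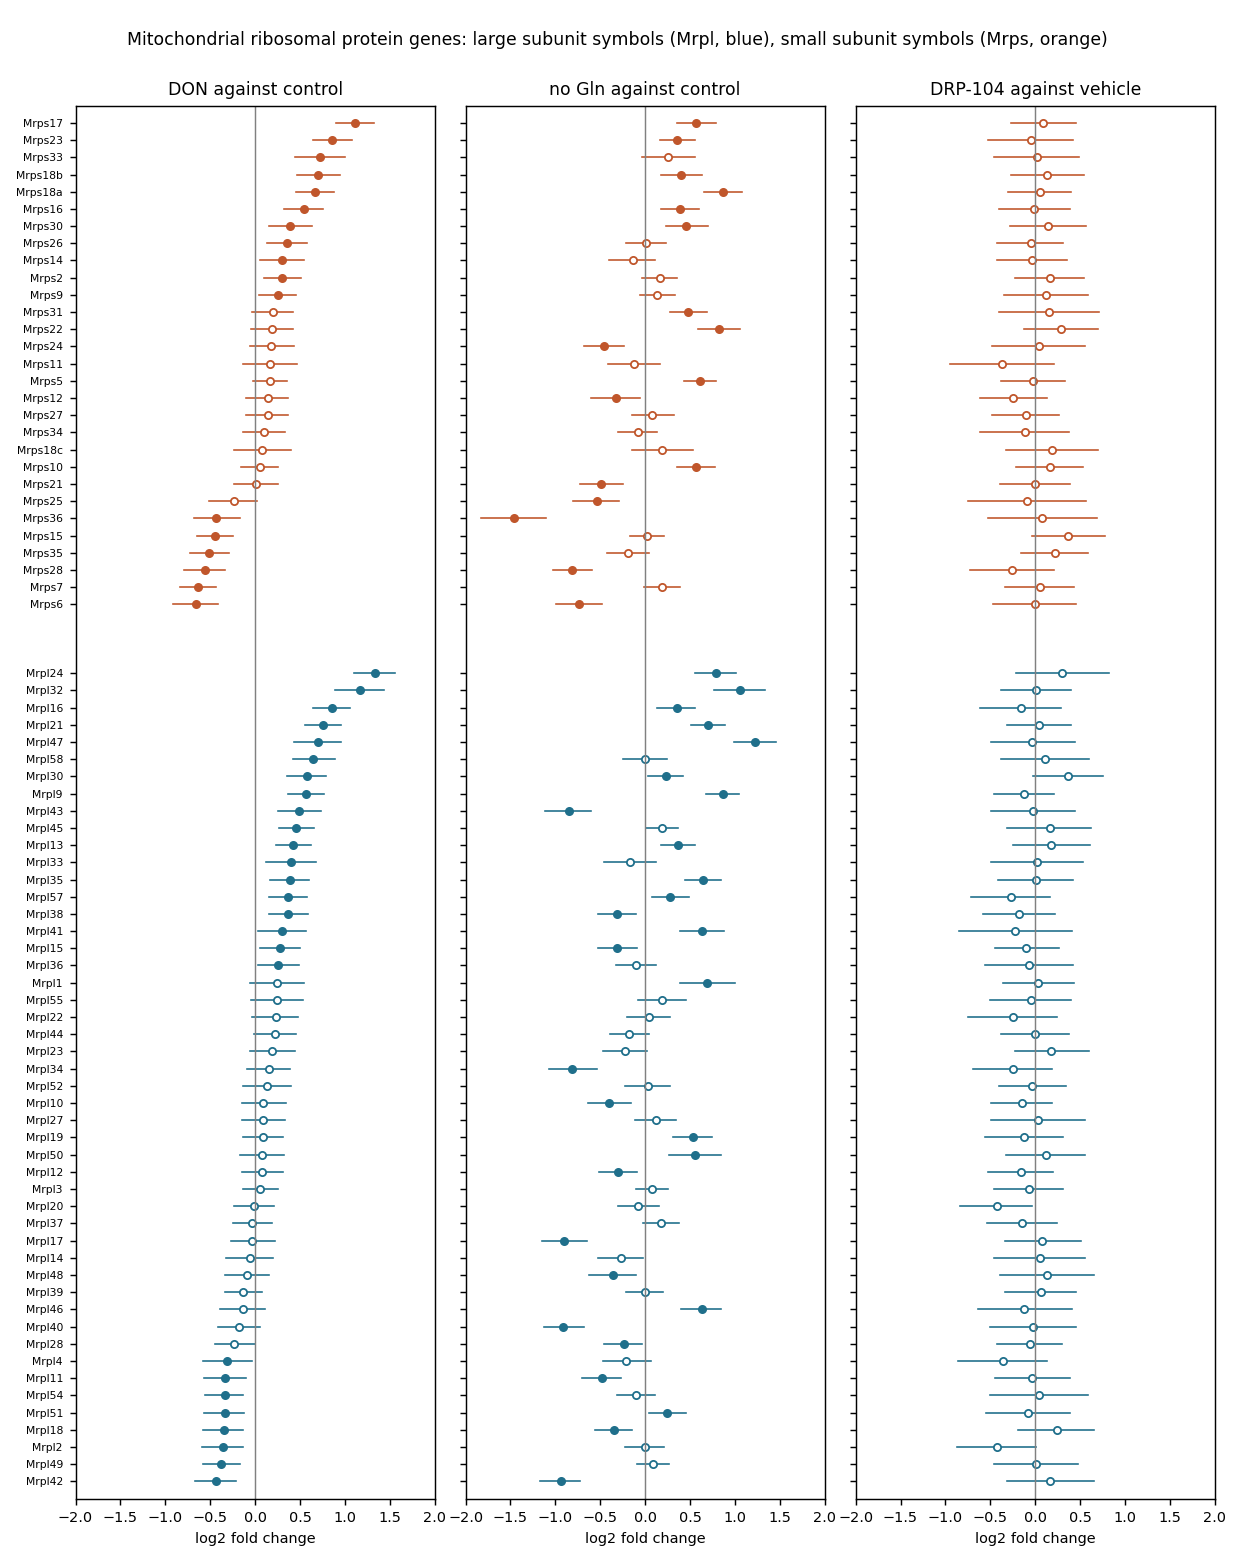
Log2 fold change (x axis) of each of the 77 members (rows, ordered by the DON value within Mrpl and Mrps) with DON, without Gln and with DRP-104 in tumors; bars are 95% intervals and filled points are called members. After DON 29 are filled to the right and 14 to the left, without Gln 26 and 20, and in tumors none is filled.

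Without Gln, 26 of the 77 members rose and 20 fell, against 34.5% and 34.9% of the 13390 genes tested, of which 69.4% were called in all. The members' median log2 fold change was 0.04, that of all genes was 0.01, and the range was from -1.46 to 1.22. Again 3 members (3.9%) differed by 2-fold or more, against 31.8% of all genes and 27.1% of those with a mean of at least 100. The quartiles were -0.27 and 0.39 for the members. They were -0.36 and 0.08 for complex I subunit genes and -0.25 and 0.3 for cytosolic ribosomal protein genes. Values did not overlap for 55 members, against 73.6% of all genes.

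Mrpl47, a large subunit protein beside the exit tunnel, rose most. It gave 1481, 1343 and 1348 without Gln against 565, 553 and 670, for a log2 fold change of 1.22 (0.99 to 1.46; limma adjusted p = 5.54e-07). Of its exon bases, 24.2% are shared on the opposite strand with Actl6a and Ndufb5, so the limit given for Mrpl24 applies here too. Mrpl32 gave 1504, 1365 and 1565 against 815, 571 and 767 (log2 fold change 1.06; limma adjusted p = 1.20e-05). Behind these, Mrps18a and Mrpl9 each rose by 0.87 and Mrps22, a mitochondria-specific small subunit protein, by 0.82. None of these genes had a treated library as low as any control library.

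The largest fall was that of Mrps36, the α-ketoglutarate dehydrogenase subunit that carries a ribosomal symbol. Its values were 182, 238 and 304 without Gln against 685, 646 and 627, a log2 fold change of -1.46 (-1.83 to -1.10; limma adjusted p = 6.08e-06). With DON it gave 463, 551 and 522 against 727, 684 and 650.2, a log2 fold change of -0.43 (-0.68 to -0.17; limma adjusted p = 0.00617). Thus all treated cultures lay below all control cultures, and the deprived ones lay farther below. Mrpl42, Mrpl40, Mrpl17 and Mrpl43 fell by 0.94, 0.91, 0.90 and 0.85 without Gln, all of them proteins of the large subunit. Of these, Mrpl40 and Mrpl17 were not called with DON, where their log2 fold changes were -0.18 and -0.03. Mrps28 of the small subunit was close behind the 4, at -0.81 without Gln.

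**Figure D2:**
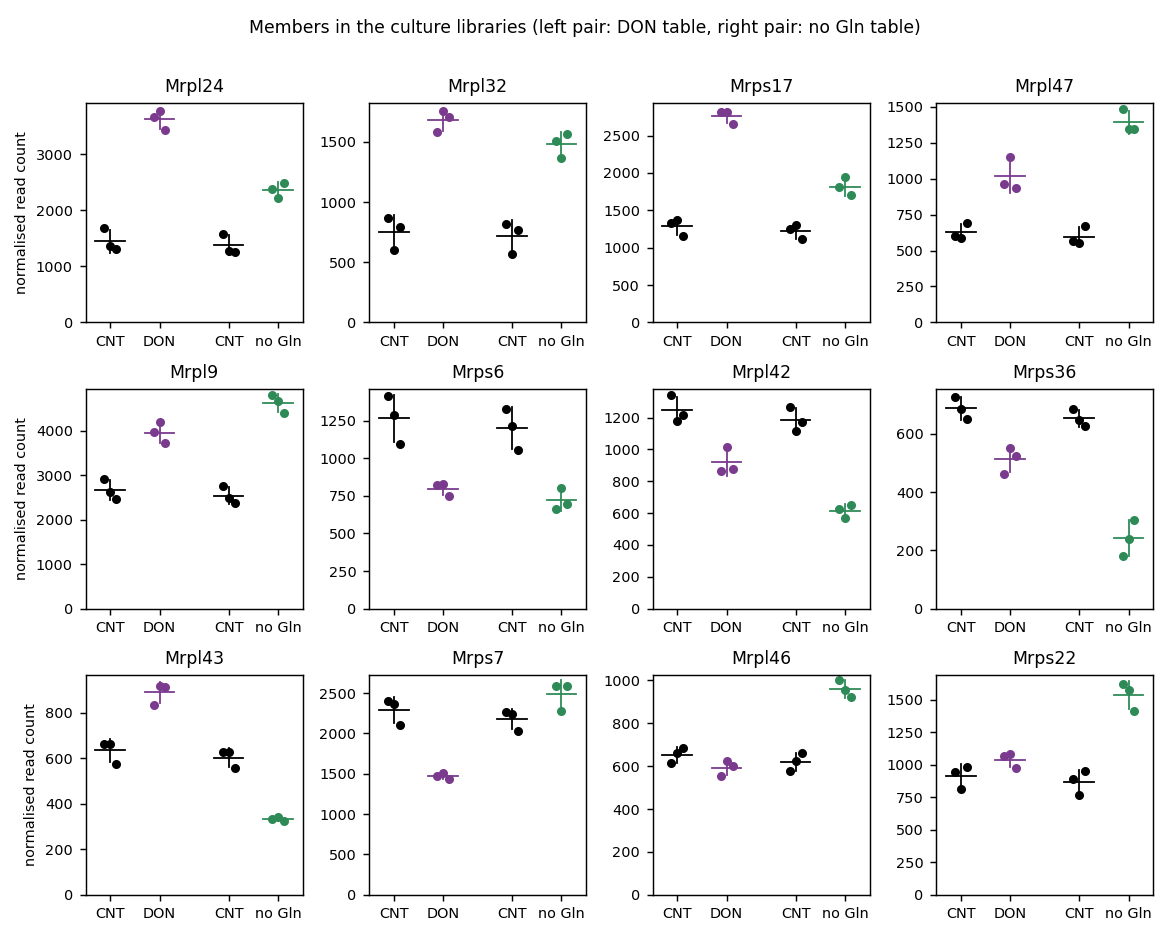
Normalised read count (y axis, from 0) of 12 members in each culture library, with the group mean (horizontal line) and SD (vertical line, n = 3); the left pair of groups is from the DON table and the right pair from the no Gln table, each scaled on its own. Mrpl43 lies above control after DON (836 to 918) and below it without Gln (324 to 341).

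Antagonism and removal of Gln were compared directly, since their effects rest on the same controls. In the scaling over all 9 culture libraries, 32 members were higher and 18 lower with DON than without Gln, against 31.0% and 32.3% of the 13514 genes tested (63.3% called in all). Under quantile normalization, which forces the libraries to 1 distribution, the members' split was 40 higher and 13 lower. The median over the members was 0.15 on the log2 scale and that over all genes was -0.01. Values did not overlap for 60 members, against 71.7% of all genes. Mrpl43, a large subunit protein acquired in mitochondria, differed most. It gave 836, 918 and 914 with DON against 664, 663 and 576, and 334, 341 and 324 without Gln against 626, 626 and 556, so its DON values lay above control and its no Gln values below. The direct difference was 1.37 on the log2 scale (1.15 to 1.59; limma adjusted p = 2.41e-08). Its exons share 33.4% of their bases on the opposite strand with Twnk, the mitochondrial DNA helicase gene, whose values were 2551 to 2627 with DON (1280 to 1541 in control cells) and 2034 to 2104 without Gln (1235 to 1452), above control in both.

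Mrps36 (1.07) and Mrpl34 (0.99) were the next most in favour of DON. Mrpl34, a small basic protein deep in the large subunit, gave 2433, 2574 and 2237 with DON against 2310, 2405 and 1844, which overlap, and 1031, 1363 and 1167 without Gln against 2177, 2272 and 1778, which do not. On the other side, Mrps7 was lower with DON by 0.79 (limma adjusted p = 7.31e-07). Without Gln its values of 2585, 2281 and 2593 lay above those of control cells (2264, 2238 and 2036), a log2 fold change of 0.19 that was not called (limma adjusted p = 0.0787). Mrpl46, of the central protuberance of the large subunit, was lower with DON by 0.74 and Mrps22 by 0.60. Both had been called higher without Gln (0.63 and 0.82) and neither was called with DON (-0.14 and 0.19).

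**Figure D3:**
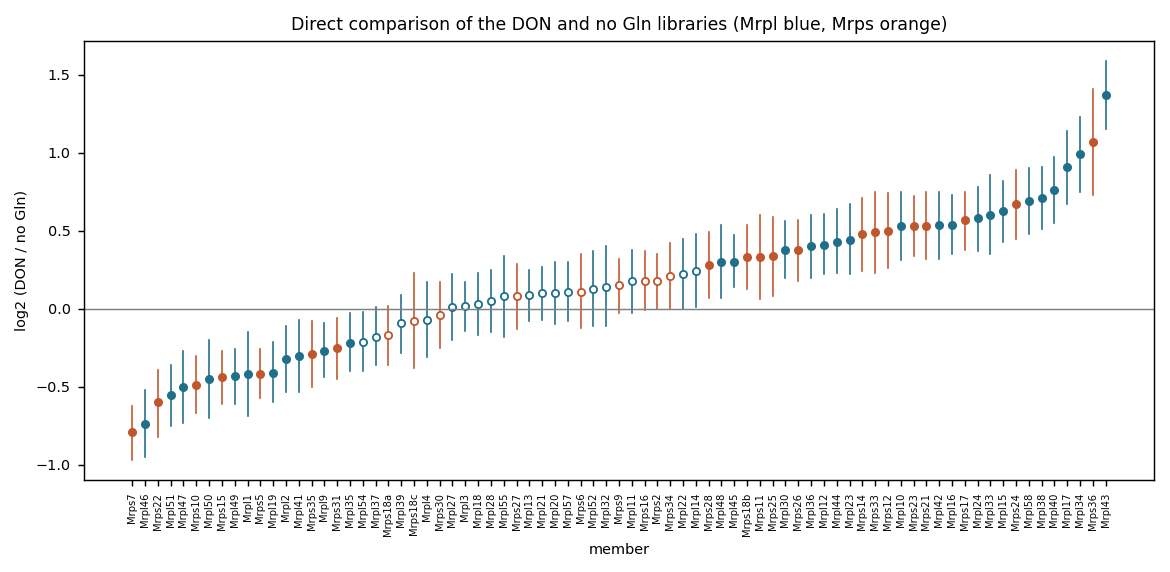
Log2 difference between DON and no Gln libraries (y axis, bars are 95% intervals) for the 77 members in order (x axis); filled points are called. The ends are Mrps7 at -0.79 and Mrpl43 at 1.37, and Mrpl (blue) and Mrps (orange) members are found throughout.

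In 4 members the calls against control had opposite signs with DON and without Gln. Mrpl43 is described above. Mrpl15 rose by 0.28 with DON (2097, 2056 and 1951 against 1862, 1688 and 1482) and had a log2 fold change of -0.31 without Gln (1353, 1255 and 1233 against 1755, 1595 and 1429), and Mrpl38, of the central protuberance, gave 0.37 and -0.31. Mrpl51 went the other way, with -0.34 after DON and 0.24 without Gln. The direct differences were 0.63 for Mrpl15, 0.71 for Mrpl38 and -0.55 for Mrpl51 (limma adjusted p = 2.14e-05, 7.57e-06 and 9.25e-05). The opposite calls of Mrpl15, Mrpl38 and Mrpl51 rest on small changes, and each of these 3 lost a call when 1 of several single libraries was left out. Without CNT replicate 1, for example, the no Gln log2 fold change was -0.24 for Mrpl15 and -0.27 for Mrpl38, and without noGln replicate 1 it was 0.21 for Mrpl51, none of them called.

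By subunit, 18 of 48 Mrpl genes rose and 8 fell with DON, and 11 of 29 Mrps genes rose and 6 fell. The rises, 37.5% and 37.9%, were near the 33.3% of all genes, and the falls, 16.7% and 20.7%, lay under the 34.7% of all genes. The medians were 0.14 and 0.17 on the log2 scale. Without Gln the counts were 16 up and 13 down for Mrpl and 10 up and 7 down for Mrps, or 33.3% and 34.5% up and 27.1% and 24.1% down, against 34.5% and 34.9% of all genes. The medians were 0.01 and 0.13. In tumors the medians were -0.03 and 0.04, with no gene called. The difference of the medians, large minus small, was thus -0.03 with DON, -0.12 without Gln and -0.06 with DRP-104. When genes were placed by structure, with Mrps18a and Mrps30 in the large subunit and Mrps36 left out, it was 0.00, -0.08 and -0.03.

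Within each library, the mean log2 value of Mrpl genes lay above that of Mrps genes. It is not scaled by length, so only its shift between libraries is read. The excess was 0.286, 0.285 and 0.266 with DON against 0.259, 0.239 and 0.235 in control cells, and 0.268, 0.210 and 0.263 without Gln. It was 0.215, 0.184 and 0.216 in DRP-104 tumors and 0.262, 0.265 and 0.280 in vehicle tumors. The DON libraries were all above control, the no Gln libraries straddled it, and the DRP-104 tumors were all below vehicle in these read counts. With DON this excess rose, although the median log2 fold change was lower for Mrpl (0.14) than for Mrps (0.17), so these summaries point different ways. The authors also deposited FPKM values for the tumors, which are scaled by gene length and library depth. In these the Mrpl median was 18.3 with DRP-104 and 18.7 with vehicle, and the Mrps median was 11.6 and 14.5. Read counts per kb gave 392 and 399 for Mrpl, and 304 and 286 for Mrps. Mrpl relative to Mrps thus went opposite ways in these tumor measures, with no test. A mean over members was not tested.

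**Figure D4:**
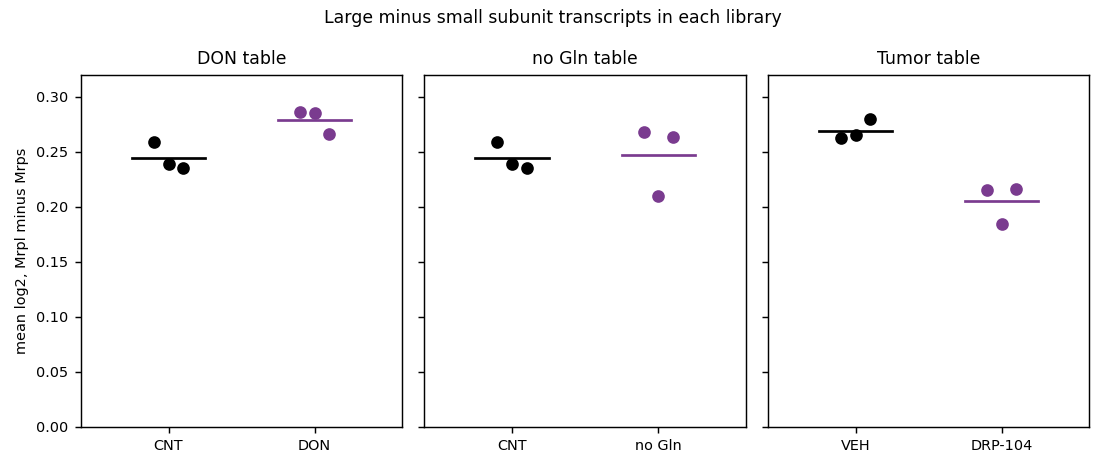
Mean log2(normalised read count + 1) of 48 Mrpl genes minus that of 29 Mrps genes (y axis) in each library (points) with the group mean (line), in each of the 3 tables. The excess is 0.266 to 0.286 with DON against 0.235 to 0.259 in control cells, and 0.184 to 0.216 in DRP-104 tumors against 0.262 to 0.280 in vehicle tumors.

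Regions of the large subunit hold few genes each, and their counts stand against 68.1% of all genes called with DON and 69.4% without Gln. The stalk, at which translation factors are recruited, had 4 tested genes, of which none rose, 2 fell with DON (Mrpl11 and Mrpl54, -0.34 each) and 3 fell without Gln (Mrpl11 by 0.48, Mrpl10 by 0.40 and Mrpl12 by 0.30). Mrpl12 gave 3989, 3748 and 3816 without Gln and 5428, 4682 and 4181 in control cells. Its call was lost without noGln replicate 2 or CNT replicate 1, where the log2 fold change was -0.28 and -0.20. At the exit tunnel, 3 of 8 genes rose with DON and none fell, and 2 rose and 1 fell without Gln, with Mrpl47 and Mrpl17 at the ends. In the central protuberance, 1 of 7 genes rose and 1 fell with DON, and 1 rose (Mrpl46) and 4 fell without Gln, with Mrpl40 lowest at -0.91.

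The 30 large subunit genes with bacterial counterparts had 12 rises and 4 falls with DON and 11 and 8 without Gln. The 20 mitochondria-specific ones tested had 8 and 4, then 7 and 5. In the small subunit, the 16 genes with bacterial counterparts had 5 rises and 4 falls with DON and 4 and 5 without Gln, and the 10 mitochondria-specific ones had 4 and 1 in each. Rises took 31.2% to 40.0% of these classes with DON and 25.0% to 40.0% without Gln, around the shares of all genes (33.3% and 34.5%). Mrps18a (large subunit) and Mrps18b (small subunit) were counted as mitochondria-specific here, although they descend from a bacterial gene. Both rose in each treatment, so the split is not strictly one by ancestry.

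Several members have roles of their own. The 3 Mrps18 genes descend from 1 bacterial gene and occupy different places on the ribosome. Mrps18a, in the large subunit, rose with DON (2812, 2600 and 2518 against 1828, 1678 and 1493; 0.67) and without Gln (0.87). Mrps18b, in the small subunit, rose by 0.70 and 0.40, while Mrps18c, also there, was not called in either (377, 381 and 395 with DON against 405, 301 and 393). Mrps30, of the large subunit, rose by 0.39 and 0.46. Mrpl58, a peptidyl-tRNA hydrolase that frees stalled chains and is built into the large subunit, gave 1374, 1399 and 1365 with DON against 969.6, 910.4 and 762, a log2 fold change of 0.65 (limma adjusted p = 0.000126). Without Gln its values of 880.4, 786 and 829 overlapped those of control cells (914, 860.0 and 735), and the direct difference of 0.69 was called (limma adjusted p = 2.06e-05).

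Mrpl53, a stalk protein gene (chromosome 6, 83109095 to 83109939, GRCm38), was listed at 0 throughout. Of its exon bases, 88.0% are shared on the same strand with the readthrough gene Gm42688, which had values of 7.49 to 16.6 in the DON table. Of the exon bases of Mrps34, 37.0% are shared on the same strand with Nme3, also listed at 0 throughout, and 63.4% on the opposite strand with Mapk8ip3, so the level of Mrps34 is uncertain. It was not called in any comparison.

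In tumors, no member was called after DRP-104, nor was any of the 15454 genes tested (0.0%). At an unadjusted p under 0.05 there were 775 genes, 5.01% of all, and 1 member. edgeR called no gene, with 863 at an unadjusted p under 0.05, and DESeq2 called 56 genes of all (27 higher and 29 lower), none of them a member. The members' log2 fold changes ran from -0.43 to 0.37 with a median of 0.00, and their 95% intervals had a median half-width of 0.43, so changes of the size that most members showed in culture were not detectable here. No member reached 1.5-fold, against 18.5% of all genes and 7.95% of the genes with a mean of at least 100. The 36 complex I subunit genes ran from -0.39 to 0.26, and the 79 cytosolic ribosomal protein genes tested from -1.02 to 0.53.

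The member with the smallest p was Mrpl20, a large subunit protein, with 461, 439.5 and 465 in DRP-104 tumors and 504, 676 and 682 in vehicle tumors. The log2 fold change was -0.43 (-0.84 to -0.03; limma adjusted p = 0.916). Mrpl2 (-0.43) and Mrpl30 (0.36) came next, with values of 521, 479.9 and 688 against 692, 869 and 699 for Mrpl2. All of these were free of overlap, as were 6 members in all, against 10.6% of all genes. In the FPKM values Mrpl30 went the other way, at 37.6 ± 14.5 with DRP-104 against 46.3 ± 3.13 with vehicle. Mrpl20 (35.9 ± 10.1 against 39.2 ± 4.10) and Mrpl2 (32.2 ± 0.938 against 35.0 ± 2.39) were lower there too. Tumors hold other cells, and fewer cells of a type and less RNA per cell cannot be told apart in them. The summed level of the 8 fibroblast markers was 13560 to 24390 in DRP-104 tumors, below the vehicle tumors, and their median log2 fold change was -1.09, with 5 of 8 at an unadjusted p under 0.05 and none called. That of the 5 endothelial markers was 1122 to 1560 against 1800 to 2046 in vehicle tumors, with a median log2 fold change of -0.48, 1 of 5 at an unadjusted p under 0.05 and none called. The summed level of the 8 T cell markers was 80.2, 41.5 and 1462 in DRP-104 tumors and 52.9 to 98.3 in vehicle tumors, so only replicate 3 stood apart. That of the 4 B cell markers was 7.49, 27.7 and 151 in DRP-104 tumors and 10.2 to 106.4 in vehicle tumors. The part of these cells in the members' values was not tested.

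The effect in tumors was set against that in DON-treated cells by an interaction, which compares a pro-drug given over days to animals with DON given for 24 h. Members with a large DON effect are in this difference by construction, since it uses the same DON libraries. It was called for 18 members, 5 higher and 13 lower in the tumor effect, against 19.1% and 14.0% of the 15070 genes tested (33.1% in all). Mrpl32 had the lowest value, -1.16 (-1.61 to -0.71; limma adjusted p = 0.000964). In tumors it gave 454.5, 392 and 499 with DRP-104 and 443, 429.5 and 460.1 with vehicle, which overlap, against its rise of 1.17 in cells. Mrpl24 followed at -1.03. Mrps15 (0.82) and Mrps35 (0.73) were at the other end. Mrps15 gave 787, 609 and 739 in DRP-104 tumors and 559, 476 and 611 in vehicle tumors, overlapping, against 1178, 1249 and 1204 with DON and 1690, 1698 and 1572 in control cells, which do not overlap. The FPKM values of the tumors had the opposite direction for Mrps15, at 27.4 ± 0.221 with DRP-104 and 31.2 ± 3.75 with vehicle. So did those of Mrps35, at 3.87 ± 0.281 and 4.94 ± 0.590.

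Other genes of the mitochondrial translation system were described from lists. Of the 5 tested mitoribosomal proteins that carry other names, Chchd1 (0.60) and Gadd45gip1 (0.51) rose with DON and Ptcd3 fell by 0.40, while Dap3 (0.13) and Aurkaip1 (0.07) were not called. Without Gln, Aurkaip1 (0.54), Chchd1 (0.48) and Gadd45gip1 (0.32) rose, and Ptcd3 (-0.15) and Dap3 (-0.07) were not called. Of 26 assembly factors, 12 rose and 2 fell with DON, the ends being Ngrn (1.46) and Rbfa (-0.43), and 8 rose and 6 fell without Gln, from Gtpbp10 (1.62) to Mpv17l2 (-0.97). Translation factors gave 6 rises and 3 falls among 15 with DON, from Metap1d (1.21) to Gfm2 (-0.70), and 8 and 4 among 14 without Gln, from Mtrf1l (1.06) to Oxa1l (-0.97). The 17 mitochondrial aminoacyl-tRNA synthetases gave 5 rises and 4 falls with DON, from Wars2 (1.01) to Vars2 (-0.90), and 5 and 6 without Gln, from Nars2 (0.95) to Sars2 (-1.36). Over all genes tested, 33.3% rose and 34.7% fell with DON, and 34.5% and 34.9% without Gln. Called in either direction with DON were 53.8% of assembly factors, 60.0% of translation factors and 52.9% of synthetases, against 68.1% of all genes. Without Gln these shares were 53.8%, 85.7% and 64.7%, against 69.4%. In tumors no gene of any list was called.

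The mitochondrial rRNAs to which the members bind behaved differently in the treatments. The value of mt-Rnr1, the small subunit rRNA, was 74858, 39724 and 80136 with DON against 10928, 8063 and 7751, a log2 fold change of 2.82 (2.36 to 3.27; limma adjusted p = 4.01e-08), and that of mt-Rnr2, the large subunit rRNA, rose by 2.16. Without Gln mt-Rnr1 fell by 0.85 (5480, 5796 and 3154 against 10299, 7616 and 7475) and mt-Rnr2 was not called (0.16). How rRNA was removed or poly(A) RNA selected is not given in the sources used here, so these values may not follow the amount of rRNA in the cells. Of 10 mitochondrial mRNAs tested, none rose and 6 fell with DON, with mt-Cytb lowest at -1.37, and 4 rose and 1 fell without Gln, from mt-Co3 (1.13) to mt-Nd1 (-0.31). The mRNAs mt-Co2, mt-Co3 and mt-Atp6 were listed at 7.49 to 34.4 in the DON table, where mt-Co1 was at 120156 or more.

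Genes for transcription of mitochondrial DNA and the stability of its RNA rose in 10 of 11 cases with DON and fell in 1, with Ptcd1 (1.42) and Lrpprc (-0.35) at the ends, and 8 rose and none fell without Gln, led by Tefm (1.34). Of 11 transcriptional regulators linked to mitochondrial genes, 5 rose and 1 fell with DON and 8 rose and 1 fell without Gln. In each case Myc was the largest rise (1.03 and 2.49) and Esrra the largest fall (-1.15 and -0.45). Among 78 cytosolic ribosomal protein genes, 52 rose (Rpl3 most, 0.98) and none fell with DON, with a median of 0.40 against 0.17 for the members, and 22 rose and 21 fell without Gln, from Rps10 (0.85) to Rpl37a (-1.47). Of 36 complex I subunit genes, 14 rose and 4 fell with DON and 6 rose and 13 fell without Gln, with Ndufa6 (1.11) and Ndufb8 (-1.03) at the ends with DON and Ndufs4 (0.92) and Ndufv3 (-0.88) without Gln.

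**Figure D5:**
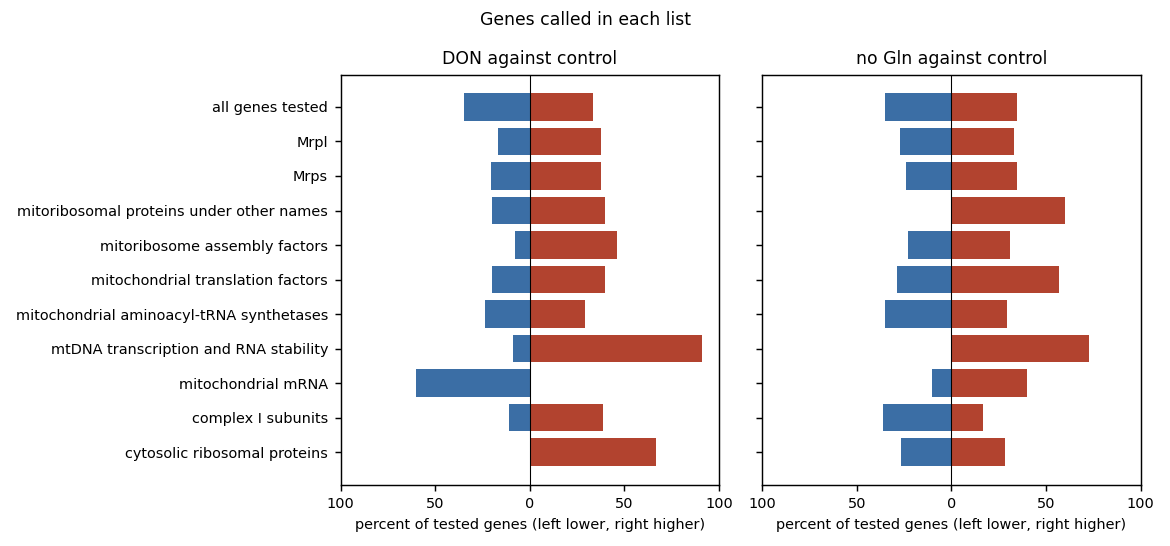
Percent of tested genes called higher (right, red) or lower (left, blue) on the x axis for each gene list (rows) with DON and without Gln, with all genes tested at the top. The Mrpl and Mrps bars lie within those of all genes for falls (16.7% and 20.7% against 34.7% with DON), while no cytosolic ribosomal protein gene was called lower with DON.

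Over the promoter windows described with the sequences, members with the ETS core had a median log2 fold change of 0.19 with DON, those without it 0.17, and the values without Gln were 0.08 and 0.13. For the NRF1 core, the medians were 0.23 and 0.17 with DON and 0.04 and 0.09 without Gln. They were 0.15 and 0.19, then 0.09 and 0.10, for the YY1 core, and 0.15 and 0.23, then 0.06 and 0.10, for the Sp1 box. The 27 genes with a CCAAT box had 0.07 against 0.19 with DON and 0.02 against 0.14 without Gln. The E-box and TATAAA were in 5 genes each, with medians of -0.01 against 0.19 and 0.18 against 0.17 with DON, and 0.00 against 0.09 and 0.35 against 0.08 without Gln. In DON against no Gln the widest gaps were those of TATAAA (0.54 against 0.14), the E-box (-0.08 against 0.18) and the CCAAT box (0.07 against 0.27). These are descriptions over few genes, with no test. Of the 78 symbols, 19 (24.4%) had the start of a protein-coding neighbour on the opposite strand within 1000 bases, against 7.2% of 21951 protein-coding genes. That background includes genes not expressed here, and the share over tested genes was not computed.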

How the data were processed

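Bulk RNA-seq libraries were made, aligned with HISAT2 and analysed with DESeq2 by a sequencing company for the study. The submitters' processing notes also list CASAVA, STAR 2.5 and GRCm39, with no roles, whereas coordinates in the FPKM table match GRCm38. The counting tool and its use of strand are not given in the sources used here. The deposited signal values are gene counts that the authors divided by 1 size factor per library in each table, and at least 99.99% of them came out as whole reads (within 0.0051). The columns of the FPKM table that the authors deposited for tumors were matched to groups and not to single tumors. No value column was left unmapped. The control columns of the culture tables, headed VEH, were taken as CNT from the tables' names.

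Tests were made with limma 3.58.1 on log2(value + 1) (R 4.3.3; trend, Benjamini-Hochberg over all genes, mean at least 10), on the libraries of each comparison. A fold change is on that scale and understates the change of low genes. DON was compared with no Gln on reads recovered from the values and scaled by median ratios, and the difference between tumor and culture effects was an interaction over 12 libraries. edgeR 4.0.16 and DESeq2 1.42.0 were run on recovered reads. The fit was also run on simulated data in which few genes changed, unlike the DON and no Gln comparisons. That run therefore cannot speak to scaling or false calls in those comparisons. Members and gene lists were chosen with earlier results of these data known. Named members were the 5 largest rises and falls in each culture comparison among called genes without overlap, those called with opposite signs, the 3 largest differences each way between DON and no Gln, the 3 smallest p in tumors, the 2 largest interactions each way, the highest and lowest per kb, and Mrps18a, Mrps18b, Mrps18c, Mrps30, Mrps36, Mrpl12, Mrpl58 and Mrpl53. From each list the largest rise and fall were named, or all genes of lists of at most 6. The genes sharing exons with Mrpl24, Mrpl43, Mrpl47, Mrpl53, Mrps6, Mrps25 and Mrps34 were chosen after values were seen. So were those named to show regions of the subunit or mitochondrial mRNAs at low values. The members whose upstream sequence is shown were also chosen in that way. Protein sequences were not analysed here, and the alleles of the line are not reported here.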

Additional observations from a re-analysis of the deposited data

Results flagged for a closer look

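The effect of DRP-104 in tumors and that of DON in cells, compared by an interaction in limma, differed for 18 members, 23.4% of the 77, against 33.1% of all genes tested. Among the members named above, those with the lower tumor effect were Mrpl32 (-1.16), Mrpl24 (-1.03), Mrpl16 (-1.02), Mrps17 (-1.02), Mrps23 (-0.91), Mrpl47 (-0.72), Mrpl9 (-0.70), Mrps18a (-0.62) and Mrps18b (-0.57). Those with the higher one were Mrps15 (0.82), Mrps35 (0.73), Mrps7 (0.68) and Mrps6 (0.65), all on the log2 scale. The first 9 had all risen with DON in cells and the other 4 had all fallen there, while none of the 13 was called in tumors. These members were named for large DON effects, which enter the interaction. The compound, the exposure, the host cells and the depth differ together between the 2 experiments and cannot be told apart.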

How the results depend on the processing

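With edgeR, DESeq2, no filter, a mean of at least 100, pseudocounts of 0.5 and 8, quantile normalization, a threshold of 0.01 and the replicate block, the counts of members called with DON, without Gln, with DRP-104 and in DON against no Gln stayed within 1.5 times those reported, and no named call changed sign. Quantile normalization moved the median of all genes with DON from 0.02 to 0.13 and that of the members from 0.17 to 0.26, which relative to all genes is 0.15 and 0.13. In the interaction it moved the median of all genes from -0.02 to -0.13 and that of the members from -0.21 to -0.27. The FPKM values of the tumors gave no limma call either, with 1081 genes at an unadjusted p under 0.05. Their direction differed from that of the read counts for Mrpl30, Mrps15, Mrps35 and the subunits, as given above. The call of Mrpl51 without Gln was lost without the filter and under quantile normalization. The latter gave 37 rises and 12 falls with DON. Leaving out each library gave 24 to 29 rises and 10 to 17 falls with DON, 23 to 26 and 14 to 24 without Gln, and 29 to 37 higher and 14 to 21 lower in the direct comparison.

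The interaction was less stable. Its 5 higher members became 3 without the filter, under quantile normalization (3 higher, 14 lower) and with the replicate block, and at a threshold of 0.01 there were 2 higher and 7 lower. Leaving out single libraries gave 3 to 7 higher and 8 to 17 lower, with 3 higher without DON replicate 1 or 3, CNT replicate 1 or 2, DRP-104 replicate 1 or VEH replicate 2, and 8 lower without DON replicate 2. The cause was not tested. The difference of the subunit medians with DON was -0.02 under quantile normalization, 0.00 by structure, -0.02 with proteins under other names and -0.06 to 0.02 without single libraries. It was -0.08 by structure and -0.19 to -0.03 without single libraries for no Gln, and -0.03 and -0.09 to -0.06 in tumors.

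Same-numbered columns had correlations of their deviations from -0.36 to 0.04. The control columns of the culture tables are not tied to single samples, so this cannot show whether the cultures were paired. With the replicate block, 27 rises and 15 falls were called with DON, 24 and 20 without Gln, and the calls of Mrpl30 and Mrpl51 without Gln and of Mrps6 and Mrps18b in the interaction were lost. The tumor libraries were the shallowest, and with 3 tumors a group only large changes could have been called.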
